A study of Mus musculus with 34 samples.

Results

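The 10 genes described here are those of MHC class I antigen presentation, in liver RNA of mice. They were taken by symbol, not by their values: the heavy chains H2-K1 and H2-D1, the light chain B2m, the peptide transporter genes Tap1 and Tap2, the loading factor Tapbp, the immunoproteasome subunits Psmb8, Psmb9 and Psmb10, and the regulator Nlrc5. They are 10 of the 55487 gene IDs of each of the 2 deposited tables, and all 10 passed the filter on low values in both.

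A class I molecule is a heavy chain bound to beta-2 microglobulin, the product of B2m, and to a short peptide, and it shows samples of the cell's own proteins to CD8 T cells. The peptides are cut by the proteasome. Psmb8, Psmb9 and Psmb10 encode the catalytic subunits of the immunoproteasome, which take the places of the standard subunits encoded by Psmb5, Psmb6 and Psmb7. Tap1 and Tap2 form the pump that moves peptides into the endoplasmic reticulum (ER), tapasin (Tapbp) holds the empty class I molecule beside that pump, and Nlrc5 is a transcriptional activator of class I genes. Interferons and NF-κB are known inducers of these genes, and hepatocytes as well as liver macrophages and endothelial cells express class I.

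All mice were males of 3 months, and each library comes from liver. The first table holds 6 libraries of wild-type (WT) mice injected with the vehicle PBS and 6 of WT mice 2 hours after an injection of TNFa. It also holds 5 libraries of PiZ mice and 5 of PiZ mice that are also knockouts of p50 (p50-KO, here PiZ p50KO), both kinds with PBS. PiZ is a transgenic line with the human gene of the Z form of alpha-1 antitrypsin, a secreted protease inhibitor that in this form polymerizes in the ER, and p50 is the NF-κB subunit made from Nfkb1. The second table holds 6 libraries of WT mice given DMSO and 6 of WT mice 24 hours after tunicamycin, an inhibitor of N-glycosylation that causes ER stress. All injections were intraperitoneal. The strain background, the PiZ transgene's promoter and the tissue range of the p50 knockout are not given in the sources used here, and no group carries the p50 knockout without PiZ. The tables carry different batch labels and were not compared with each other.

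Depth was 35.5 to 54.0 M reads in 21 libraries of the first table and 34.3 to 47.8 M reads in the 12 libraries of the second. The library labelled WT PBS 2 stood apart, with 10.2 M reads, 72.2% of them on protein-coding genes (97.3% to 97.8% in the other 21) and 32360 genes above 1 CPM, so it is stated apart and is not in the values below unless said. The hepatocyte marker Alb lay between 15.43 and 16.49 log2 CPM (log2 of reads scaled to the library's total) in the other first-table libraries and at 12.22 in WT PBS 2. In the libraries labelled PiZ p50KO, Nfkb1 was at 4.51, 4.86, 3.31, 3.74 and 3.37 log2 CPM (libraries 1 to 5) against 4.62 to 5.58 in PiZ. Since the deleted part of the gene is not given in the sources used here, this does not check the label. The labels do not state that libraries are separate mice, and if they are not, the p-values measure technical spread only.

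Promoter sequences from RefSeq (GRCm38.p6, windows of 250 bases before to 50 after a start) matched 8 of the 10 genes. Those of the heavy and light chains are shown because they hold the NF-κB motif together with letters of the interferon-stimulated response element (ISRE). The H2-K1 stretch is chr17:34000348-34000547 on the minus strand, the 200 bases before the start. The H2-D1 stretch is chr17:35262923-35262952 on the plus strand, 171 to 142 bases before the start, and is also part of an exon of a longer annotated transcript. The B2m stretch is chr2:122147487-122147685 on the plus strand, 200 to 2 bases before the start. Capitals mark the motifs found, on either strand: the NF-κB motif (by name), CCAAT, the ISRE-like letters GAAANNGAA and, chosen after the sequences were read, GAANNGAAA.
H2-K1: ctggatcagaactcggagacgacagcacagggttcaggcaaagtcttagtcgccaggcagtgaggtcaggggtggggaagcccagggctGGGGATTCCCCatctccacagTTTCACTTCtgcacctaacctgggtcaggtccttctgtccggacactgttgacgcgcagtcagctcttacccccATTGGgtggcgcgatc
H2-D1: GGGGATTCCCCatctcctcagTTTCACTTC
B2m: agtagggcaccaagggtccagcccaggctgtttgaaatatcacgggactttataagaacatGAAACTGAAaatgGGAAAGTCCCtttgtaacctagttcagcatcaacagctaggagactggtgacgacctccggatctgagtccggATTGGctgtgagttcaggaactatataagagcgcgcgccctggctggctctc
The 30 bases of H2-D1 match the corresponding 30 of H2-K1 at 29 positions. In both heavy chains 2 overlapping matches to the NF-κB motif precede GAANNGAAA, here read on the other strand.

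The NF-κB motif was found in 3 of the 8 windows (H2-K1, H2-D1 and B2m) and in 8.46% of all 32851 windows of that length. GAAANNGAA was found in 1 (B2m) and in 8.56% of all windows, and GAANNGAAA in 2 (H2-K1 and H2-D1) and in 7.52%. TTCNNNGAA, the letters of the gamma-activated site (GAS), was found in 1 (Psmb8) and in 8.3%, and CCAAT in 6 and in 37.4%. The windows of Tap1, Psmb9, Psmb10, Psmb8 and Tapbp hold neither the NF-κB motif nor either ISRE-like spelling. For Tap1, Psmb9, Psmb8 and Tapbp all 250 bases before the RefSeq start lie in annotated exons, and for Psmb10 52 do. Motifs before other annotated starts of these genes could thus be missed. These are matches of letters, not measured binding. In GRCm38 with GENCODE M21, the 7 genes of chromosome 17 in the order of their starts are Tapbp (chr17:33915899-33929292, plus), H2-K1 (chr17:33996017-34000347, minus), Psmb9 (chr17:34181987-34187764, minus), Tap1 (chr17:34187553-34197225, plus), Psmb8 (chr17:34197721-34201454, plus), Tap2 (chr17:34203527-34216321, plus) and H2-D1 (chr17:35262730-35267499, plus), with the strand after each position. B2m (chr2:122147686-122153083, plus) lies on chromosome 2, and Nlrc5 (chr8:94434356-94527272, plus) and Psmb10 (chr8:105935735-105938444, minus) lie on chromosome 8. Tap1 and Psmb9 are transcribed away from each other from RefSeq starts with 225 bases between them. In GENCODE M21, whose positions are given above, the 2 genes begin farther out and overlap by 212 bases.

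Per kilobase of annotated exons, the light chain was the most abundant of the 10 transcripts in WT PBS livers, at 1939 ± 185 CPM per kb (SD, n = 5). H2-K1 followed at 286 ± 51.9 and H2-D1 at 188 ± 31.4 CPM per kb. Psmb10 (13.8 ± 4.42) and Tapbp (10.9 ± 2.03) came next and did not differ beyond their spread. Tap2 (4.07 ± 0.725), Psmb8 (3.37 ± 0.375), Psmb9 (2.28 ± 0.723) and Tap1 (1.67 ± 0.39 CPM per kb) followed, with each neighbour within the summed SDs of the next. Nlrc5 was the lowest at 0.224 ± 0.0641 CPM per kb.

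**Figure D1:**
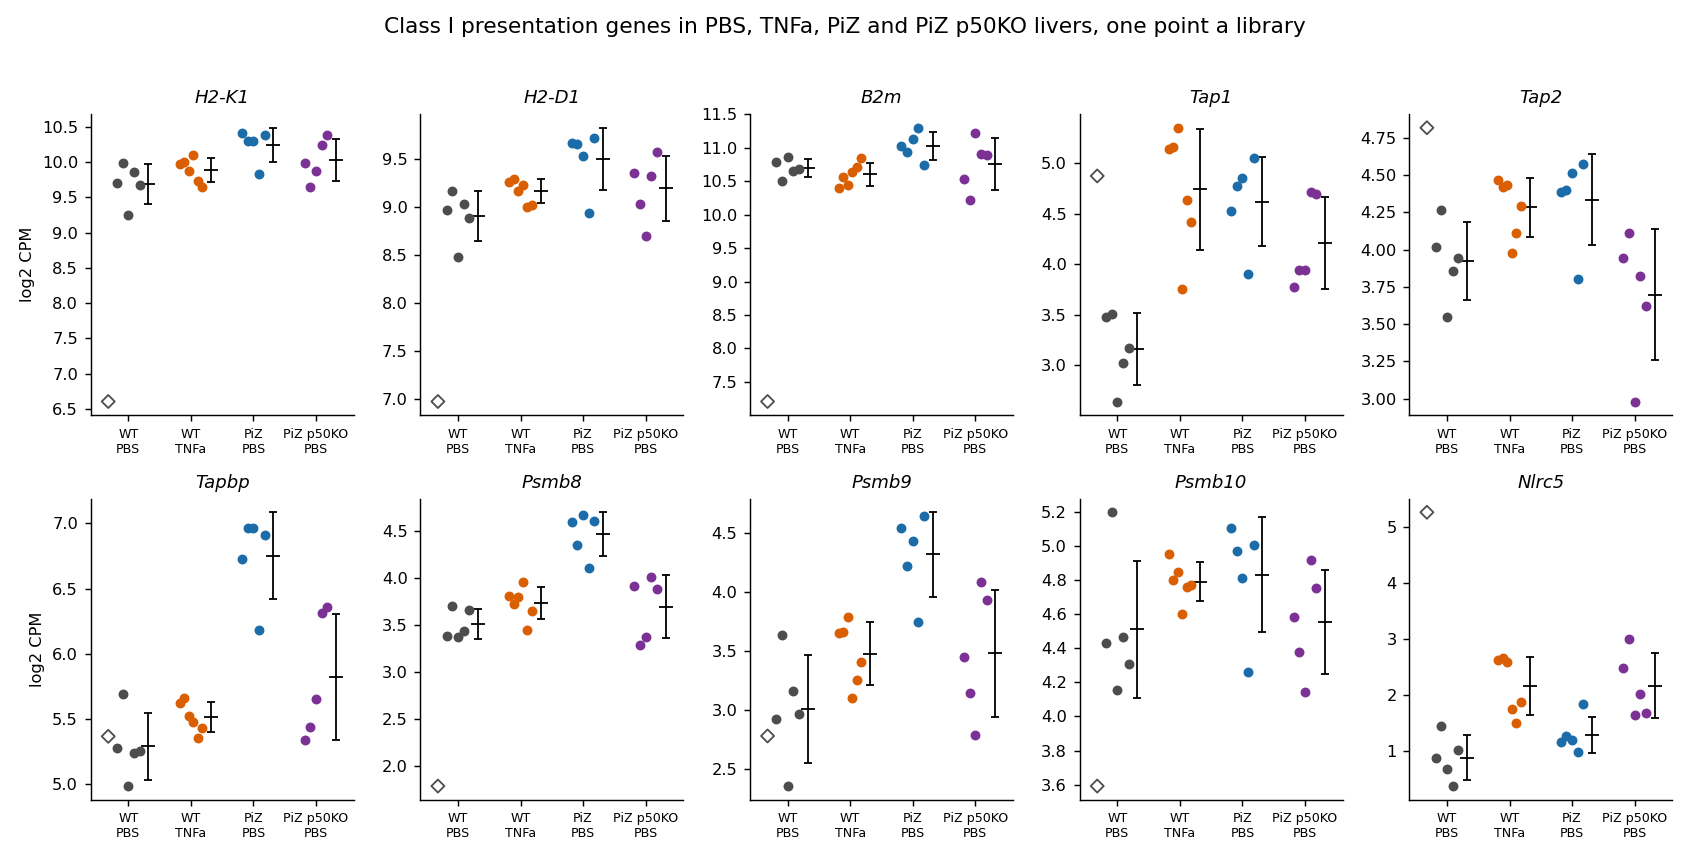
Level of each gene (vertical axis, log2 CPM, own range per panel) in the libraries of the first table; points are libraries, black marks the mean ± SD of each group, and the open diamond is WT PBS 2, which is not in the mean. Tapbp, Psmb8, Psmb9 and Tap1 lie above every filled WT PBS point in all 5 PiZ libraries. In this comparison 45.6% of all genes were called higher, and the share of them that separates in this way was not counted. The open diamond of Tap1, at 4.87, lies within the PiZ range.

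PiZ and WT livers, which received the same vehicle, were compared to ask how these transcripts differ in mice with the transgene. Since the strain background is not given in the sources used here, the transgene and other differences between the lines cannot be told apart. In PiZ 6 of the 10 genes rose and none fell, and the largest differences were those of the loading factor Tapbp (2.75-fold), the transporter gene Tap1 (2.74-fold) and the immunoproteasome subunits Psmb9 (2.48-fold) and Psmb8 (1.94-fold). The heavy chains H2-K1 and H2-D1 rose by less. B2m, Tap2, Psmb10 and Nlrc5 did not pass the test. Of all genes tested in this comparison, 45.6% were called higher and 6.19% lower. The median log2 fold change was 0.58 over the 10 genes and 0.40 over all genes.

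Tapbp was at 5.28, 5.69, 4.98, 5.24 and 5.25 log2 CPM in the WT PBS group (libraries 1, 3, 4, 5 and 6 in that order, as below), and at 6.73, 6.97, 6.97, 6.18 and 6.91 in PiZ libraries 1 to 5. The groups did not overlap, and PiZ 4 was the lowest of its group. The log2 fold change was 1.46 ± 0.19 (SE, limma, two-sided, adjusted p = 3.38e-06). Tap1 was at 3.48, 3.50, 2.64, 3.02 and 3.17 log2 CPM in WT and at 4.52, 4.77, 4.85, 3.91 and 5.05 in PiZ. Here too all 5 PiZ libraries lay above all WT libraries (log2 fold change 1.46 ± 0.28, limma adjusted p = 0.000225). Its partner Tap2 was at 4.02, 4.27, 3.55, 3.85 and 3.94 in WT and at 4.38, 4.40, 4.51, 3.80 and 4.58 log2 CPM in PiZ. These groups overlapped through PiZ 4, and the log2 fold change of 0.41 ± 0.19 did not pass (limma adjusted p = 0.0742). Without PiZ 4 it was 0.54 and passed (adjusted p = 0.0171), and without WT PBS 3 it was 0.49 (adjusted p = 0.0402).

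Psmb8, the immunoproteasome subunit for chymotrypsin-like cutting, was at 3.38, 3.70, 3.36, 3.43 and 3.65 log2 CPM in WT and at 4.59, 4.34, 4.66, 4.10 and 4.60 in PiZ. The groups did not overlap (log2 fold change 0.95 ± 0.15, limma adjusted p = 2.79e-05). Psmb9 was at 2.92, 3.63, 2.36, 3.16 and 2.96 in WT and at 4.54, 4.22, 4.43, 3.74 and 4.64 in PiZ, again without overlap (1.31 ± 0.24, adjusted p = 0.000166). Psmb10 ranged from 4.15 to 5.20 in WT and from 4.26 to 5.11 in PiZ. Its log2 fold change of 0.32 ± 0.18 did not pass (limma adjusted p = 0.148), while it was 0.46 without PiZ 4 (adjusted p = 0.0292) and 0.49 without WT PBS 3 (adjusted p = 0.0157), the WT library that was highest for 9 of the 10 genes.

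H2-K1 was at 9.70, 9.99, 9.25, 9.86 and 9.67 log2 CPM in WT and at 10.42, 10.30, 10.30, 9.83 and 10.39 in PiZ. The groups overlapped only through PiZ 4 (log2 fold change 0.55 ± 0.15, limma adjusted p = 0.00492). H2-D1 was at 8.96, 9.16, 8.48, 9.03 and 8.89 in WT and at 9.67, 9.66, 9.53, 8.94 and 9.72 in PiZ, with the same exception (0.60 ± 0.16, adjusted p = 0.00463). B2m was at 10.79, 10.50, 10.87, 10.65 and 10.68 in WT and at 11.03, 10.93, 11.13, 11.30 and 10.74 in PiZ. PiZ 4, the lowest PiZ library for the other 9 genes, was the highest for B2m. The log2 fold change of B2m was 0.33 ± 0.15 (limma adjusted p = 0.0776), and without PiZ 5 it was 0.40 and passed (adjusted p = 0.0434). Nlrc5 ranged from 0.38 to 1.46 in WT and from 0.99 to 1.84 in PiZ, and its log2 fold change of 0.41 ± 0.28 did not pass (adjusted p = 0.234).

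The scale of the libraries matters here. When every library was shifted to the same median, Tapbp (0.97, adjusted p = 2.92e-05), Tap1 (0.97, adjusted p = 0.00321), Psmb9 (0.82, adjusted p = 0.00294) and Psmb8 (0.47, adjusted p = 0.00965, all limma) remained higher in PiZ, 4 of the 10 genes against 17.4% of all genes higher and 22.5% lower. On that scale H2-K1 (0.06, adjusted p = 0.727) and H2-D1 (0.11, adjusted p = 0.528) no longer passed. B2m, Tap2, Psmb10 and Nlrc5, none of which passed on either scale, then had log2 fold changes between -0.17 and -0.08. With WT PBS 2 in the fit, 5 of the 10 rose (15.3% of all genes higher, 2.21% lower). H2-K1 was then the gene that no longer passed (1.07, adjusted p = 0.0852). The level of each gene in WT PBS 2 was 6.61 log2 CPM for H2-K1, 6.97 for H2-D1, 7.21 for B2m, 4.87 for Tap1, 4.82 for Tap2, 5.37 for Tapbp, 1.78 for Psmb8, 2.78 for Psmb9, 3.59 for Psmb10 and 5.27 for Nlrc5. It was thus far below the other WT PBS libraries for the heavy and light chains and far above them for Nlrc5.

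Markers of other cells moved with this comparison, in which 45.6% of all genes were called higher and 6.19% lower. Macrophage and Kupffer cell markers rose in 8 of 9 tested, with a summed level of 612 to 921 CPM in PiZ and 199.7 to 245 in WT PBS. The pan-leukocyte gene Ptprc rose by 2.50 on the log2 scale, from 1.71 to 4.13 CPM in WT to 14.04 to 18.1 CPM in PiZ. Of 4 stellate cell markers 4 rose, of 5 endothelial markers 4 rose, 3 of 4 cholangiocyte and 2 of 2 dendritic cell markers rose, and of 5 hepatocyte markers 3 fell. None of 4 neutrophil markers passed. The 13 T and NK cell markers summed to 5.41 to 7.43 CPM in PiZ and 1.42 to 2.89 CPM in WT, and only 1 of them passed the filter. The 4 B cell markers stayed under the filter and summed to at most 3.66 CPM in PiZ. The part of these cells in the rise of the class I genes was not tested, and in whole tissue more cells of a type and more RNA per cell cannot be told apart.

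**Figure D2:**
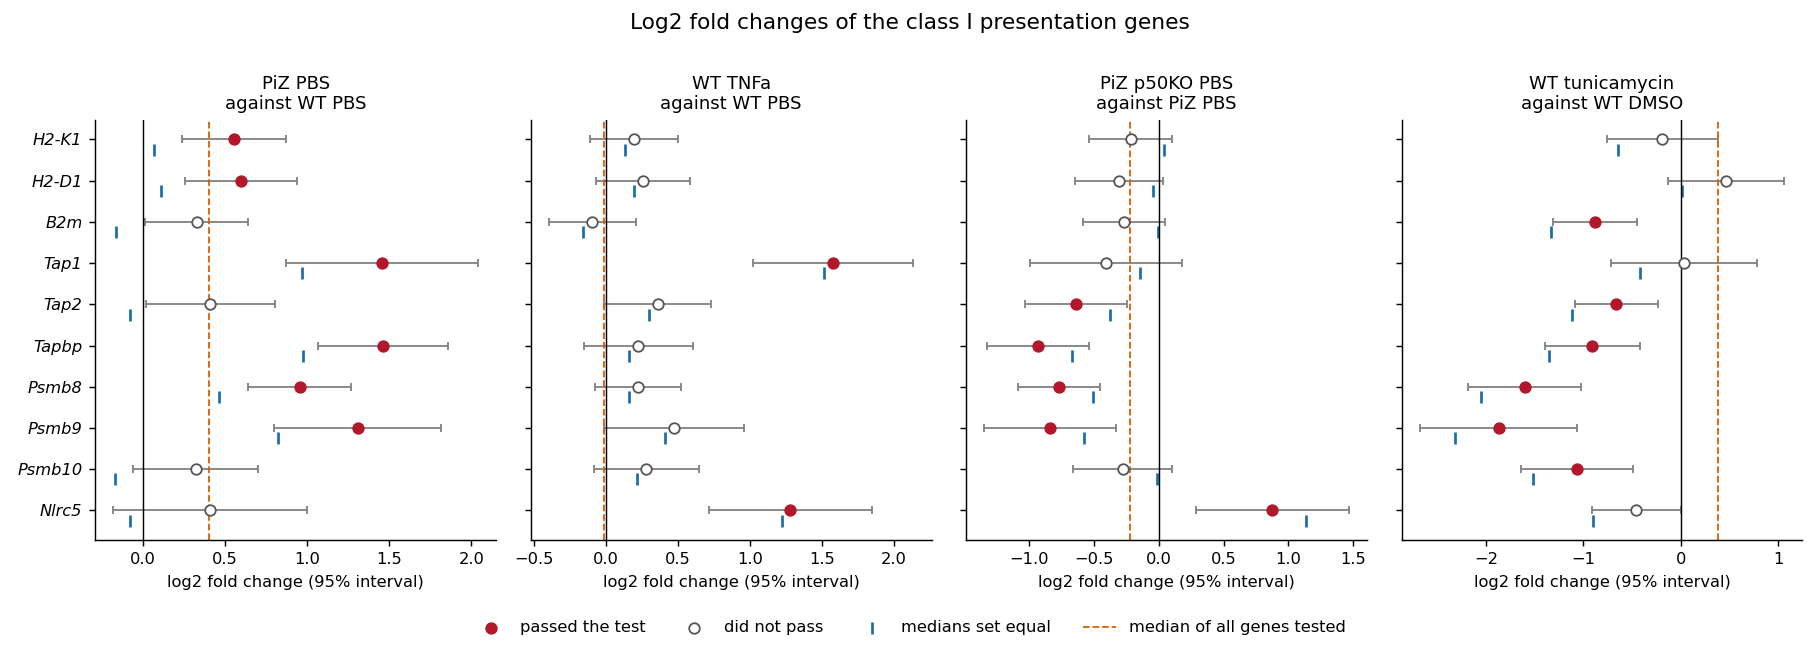
Log2 fold change (horizontal axis) of each gene in 4 comparisons with its 95% interval; red points passed the test, open points did not, blue ticks are the values with all libraries shifted to the same median, and the dashed line is the median of all genes tested. In PiZ the ticks of Tapbp, Tap1, Psmb9 and Psmb8 stay above 0, and after tunicamycin no gene passed upwards.

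The comparison of WT livers 2 hours after TNFa with WT livers given PBS asks which of these genes the cytokine changes early. Tap1 rose 2.99-fold and Nlrc5 rose 2.43-fold, and the other 8 genes did not pass. Of all genes tested 7.63% were called higher and 4.05% lower, and the median was 0.27 over the 10 genes and -0.02 over all genes. With equal medians the same count of 2 rose, beside 7.42% of all genes higher and 6.18% lower.

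Tap1 was at 3.75 (lowest), 4.88 (median) and 5.35 (highest) log2 CPM in the 6 TNFa libraries, above the highest WT PBS library at 3.50. The log2 fold change was 1.58 ± 0.27 (limma adjusted p = 0.000397), with TNFa 4 the lowest library. Nlrc5 was at 1.50, 2.24 and 2.66 (lowest, median, highest), just above the WT PBS maximum of 1.46 (1.28 ± 0.27, adjusted p = 0.00284). TNFa 4 was also the lowest TNFa library for Nfkb1 (4.77 log2 CPM, 6.57 to 6.95 in the other 5) and for the interferon regulatory factor Irf1 (4.64, against 7.21 to 7.58). Without TNFa 4, Tap1 had a log2 fold change of 1.78 (adjusted p = 1.51e-05) and Nlrc5 of 1.37 (adjusted p = 0.00137). With WT PBS 2 in the fit Tap1 still passed (1.29, adjusted p = 0.0232), Nlrc5 did not (0.55, adjusted p = 0.573), and 2.21% of all genes were called higher and 1.9% lower.

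The other 8 genes had log2 fold changes between -0.10 (B2m) and 0.47 (Psmb9) after TNFa. H2-K1 was at 9.65, 9.92 and 10.10 log2 CPM (lowest, median, highest), H2-D1 at 9.01, 9.20 and 9.30, and both overlapped WT PBS (0.20, 95% interval -0.11 to 0.50, and 0.26, interval -0.07 to 0.58). The upper ends of these intervals lie below the fitted rise of Tap1 and of Nlrc5. The transcription factors known to act on class I genes rose in 9 of 14, led by Irf1 (log2 fold change 3.65 ± 0.40, adjusted p = 6.1e-06) and Irf8 (1.93 ± 0.29, adjusted p = 0.000123), and all 5 NF-κB subunits rose. These counts and those of the markers below stand beside 7.63% of all genes higher and 4.05% lower. Of the neutrophil markers 3 of 4 tested rose, with a summed level of 7.18 to 102.9 CPM against 1.48 to 18.7 in WT PBS, and 2 of 9 macrophage markers did.

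TNFa and PiZ libraries were also compared directly, which tests the difference between the 2 responses to a common control. Tapbp (log2 fold change -1.24 ± 0.18, adjusted p = 1.11e-05), Psmb8 (-0.73 ± 0.14, adjusted p = 0.000237) and Psmb9 (-0.84 ± 0.23, limma adjusted p = 0.00473) were lower after TNFa than in PiZ. So were B2m (-0.42, adjusted p = 0.0179) and H2-K1 (-0.36, adjusted p = 0.043). Nlrc5 was higher after TNFa (0.87 ± 0.27, adjusted p = 0.0101), and Tap1 did not pass (0.12, 95% interval -0.44 to 0.68). Thus 5 genes were lower and 1 higher, beside 47.7% of all genes lower and 8.11% higher. With equal medians, Tapbp alone remained lower (-0.81, adjusted p = 0.000112) and Nlrc5 (1.30), Psmb10 (0.39) and Tap2 (0.38) were higher, beside 22.8% of all genes higher and 20.7% lower. H2-K1 lost its call without any of PiZ 1, 2, 3 or 5 or TNFa 3, 5 or 6 (adjusted p up to 0.0988), and B2m lost it without PiZ 4 (adjusted p = 0.0504). Without the filter on low values neither passed (adjusted p = 0.153 for H2-K1 and 0.0818 for B2m). Of the macrophage and Kupffer cell markers 8 of 9 were lower after TNFa than in PiZ (Lyz2 -2.19, Cd68 -2.03), with a sum of 266 to 368 CPM against 612 to 921. So were Ptprc (-1.30, limma adjusted p = 0.000144), all 4 stellate cell markers (Col1a1 -4.05, Lrat -2.42), 4 of 5 endothelial markers, 1 of 2 dendritic (Itgax -3.44) and 1 of 4 cholangiocyte markers (Epcam), while 3 of 5 hepatocyte markers were higher. Their part in these differences was not tested.

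The comparison of PiZ p50KO with PiZ livers asks which transcripts differ in the PiZ liver without p50. Here too the knockout and other differences between the lines cannot be told apart. Tapbp, Psmb8, Psmb9 and Tap2 were lower in the libraries labelled PiZ p50KO, by 1.91-fold, 1.70-fold, 1.79-fold and 1.56-fold, and Nlrc5 was 1.83-fold higher. The heavy chains, B2m, Tap1 and Psmb10 did not pass. The 4 genes lower and 1 higher stand beside 21.6% of all genes lower and 3.36% higher, and the median was -0.36 over the 10 genes and -0.22 over all genes.

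Tapbp was at 5.34, 5.44, 5.65, 6.31 and 6.36 log2 CPM in PiZ p50KO libraries 1 to 5, and libraries 4 and 5 reached above the lowest PiZ library at 6.18 (log2 fold change -0.93 ± 0.19, limma adjusted p = 0.0015). Psmb8 was at 3.91, 3.28, 3.37, 4.01 and 3.88, all below the PiZ minimum of 4.10 (-0.77 ± 0.15, adjusted p = 0.00102). Psmb9 was at 3.45, 3.15, 2.79, 4.08 and 3.93 and overlapped PiZ (-0.84 ± 0.24, adjusted p = 0.0165). The transporter gene Tap2 was at 3.94, 4.11, 2.98, 3.82 and 3.62 log2 CPM, where libraries 1, 2 and 4 lay above PiZ 4 at 3.80 (-0.64 ± 0.19, adjusted p = 0.0174). Nlrc5 went the other way, at 2.49, 3.01, 1.65, 2.03 and 1.68 in PiZ p50KO against 0.99 to 1.84 in PiZ (0.87 ± 0.28, limma adjusted p = 0.0293).

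Libraries 1 and 2 of PiZ p50KO, which had the highest Nfkb1 of that group, were also the 2 highest for Nlrc5. Without both, Nlrc5 no longer passed (0.49, adjusted p = 0.299), nor did Psmb9 (-0.71, adjusted p = 0.119), while Tapbp (-0.64, adjusted p = 0.0323), Psmb8 (-0.71, adjusted p = 0.0076) and Tap2 (-0.86, adjusted p = 0.00915) did. The call of Nlrc5 also ended when any of PiZ p50KO 1 or 2 or PiZ 1 to 4 was left out (adjusted p between 0.0534 and 0.0957). Without PiZ 4, H2-D1 passed downwards (-0.45, adjusted p = 0.0302). With equal medians Tapbp (-0.67, adjusted p = 0.00362) and Psmb8 (-0.51, adjusted p = 0.0124) remained lower and Nlrc5 higher (1.13, adjusted p = 0.00479), beside 9.84% of all genes higher and 9.11% lower, and Psmb9 (-0.58, adjusted p = 0.0528) and Tap2 (-0.38, adjusted p = 0.0775) missed the threshold. With WT PBS 2 in the fit, whose spread is shared by all groups, only Tapbp passed (adjusted p = 0.0101, limma), beside 0.519% of all genes higher and 3.02% lower. Without the filter on low values Tap2 (adjusted p = 0.0719), Psmb9 (adjusted p = 0.0782) and Nlrc5 (adjusted p = 0.118) did not pass.

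H2-K1 was at 9.98, 9.65, 9.88, 10.25 and 10.39 log2 CPM in PiZ p50KO and overlapped PiZ (-0.22, 95% interval -0.54 to 0.10). H2-D1 was at 9.35, 9.03, 8.70, 9.33 and 9.58 (-0.31, interval -0.65 to 0.03), and B2m at 10.54, 10.21, 11.22, 10.91 and 10.90 (-0.27, interval -0.58 to 0.05). Tap1 was at 3.77, 3.94, 3.94, 4.72 and 4.69 and overlapped PiZ (-0.41, interval -0.99 to 0.18). All 9 macrophage and Kupffer cell markers fell in this comparison, beside 21.6% of all genes lower and 3.36% higher. Their summed level was 305 to 530.2 CPM in PiZ p50KO against 612 to 921 in PiZ, and 2 of 5 hepatocyte markers rose. Stellate cell markers fell in 3 of 4 (Col1a1 -2.82, Dcn -0.91 and Reln -0.78 on the log2 scale), with a sum of 159 to 284 CPM against 424 to 556. Ptprc fell (-1.10, limma adjusted p = 0.00364), as did 2 of 4 cholangiocyte markers (Epcam -1.58, Krt19 -1.31), 1 of 2 dendritic cell markers (Itgax -2.73) and 1 of 5 endothelial markers (Clec4g -0.44). None of 4 neutrophil markers passed. The part of all these cells in the fall of Tapbp, Psmb8, Psmb9 and Tap2 was not tested.

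Against WT PBS, the PiZ p50KO livers had higher Nlrc5 (2.44-fold, log2 fold change 1.28 ± 0.28, limma adjusted p = 0.00903) and Tap1 (2.07-fold, 1.05 ± 0.28, adjusted p = 0.022), without overlap in either. These 2 of 10 stand beside 10.5% of all genes higher and 1.14% lower. Tapbp (0.53 ± 0.19, adjusted p = 0.0717), Psmb9 (0.47, adjusted p = 0.212) and Psmb8 (0.19, adjusted p = 0.452) did not pass, and Tapbp passed without PiZ p50KO 1 (0.65, adjusted p = 0.0257), without PiZ p50KO 2 (0.63, adjusted p = 0.0434) or without WT PBS 3 (0.63, adjusted p = 0.0427). Tap1 lost its call without PiZ p50KO 4 or 5 or WT PBS 4 or 5 (adjusted p between 0.0503 and 0.0655). With equal medians the 2 genes still passed, beside 3.2% of all genes higher and 4.33% lower. With WT PBS 2 in the fit neither did, and 0.0828% of all genes were higher and 0.00753% lower. Without the filter on low values Tap1 did not pass (adjusted p = 0.117). Markers of other cells moved here too. Ptprc rose (1.40, limma adjusted p = 0.00366), 4 of 9 macrophage and Kupffer cell markers rose (Lyz2 by 1.89, Cd68 by 1.14) and 1 fell (Timd4, -1.45), with a sum of 305 to 530.2 CPM against 199.7 to 245. Itgax (2.32), 2 of 4 stellate cell markers (Col1a1 1.38, Dcn 0.86) and 1 of 5 endothelial markers (Pecam1 0.49) rose as well, and no hepatocyte, cholangiocyte or neutrophil marker passed. The part of these cells in the rise of Nlrc5 and Tap1 was not tested.

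**Figure D3:**
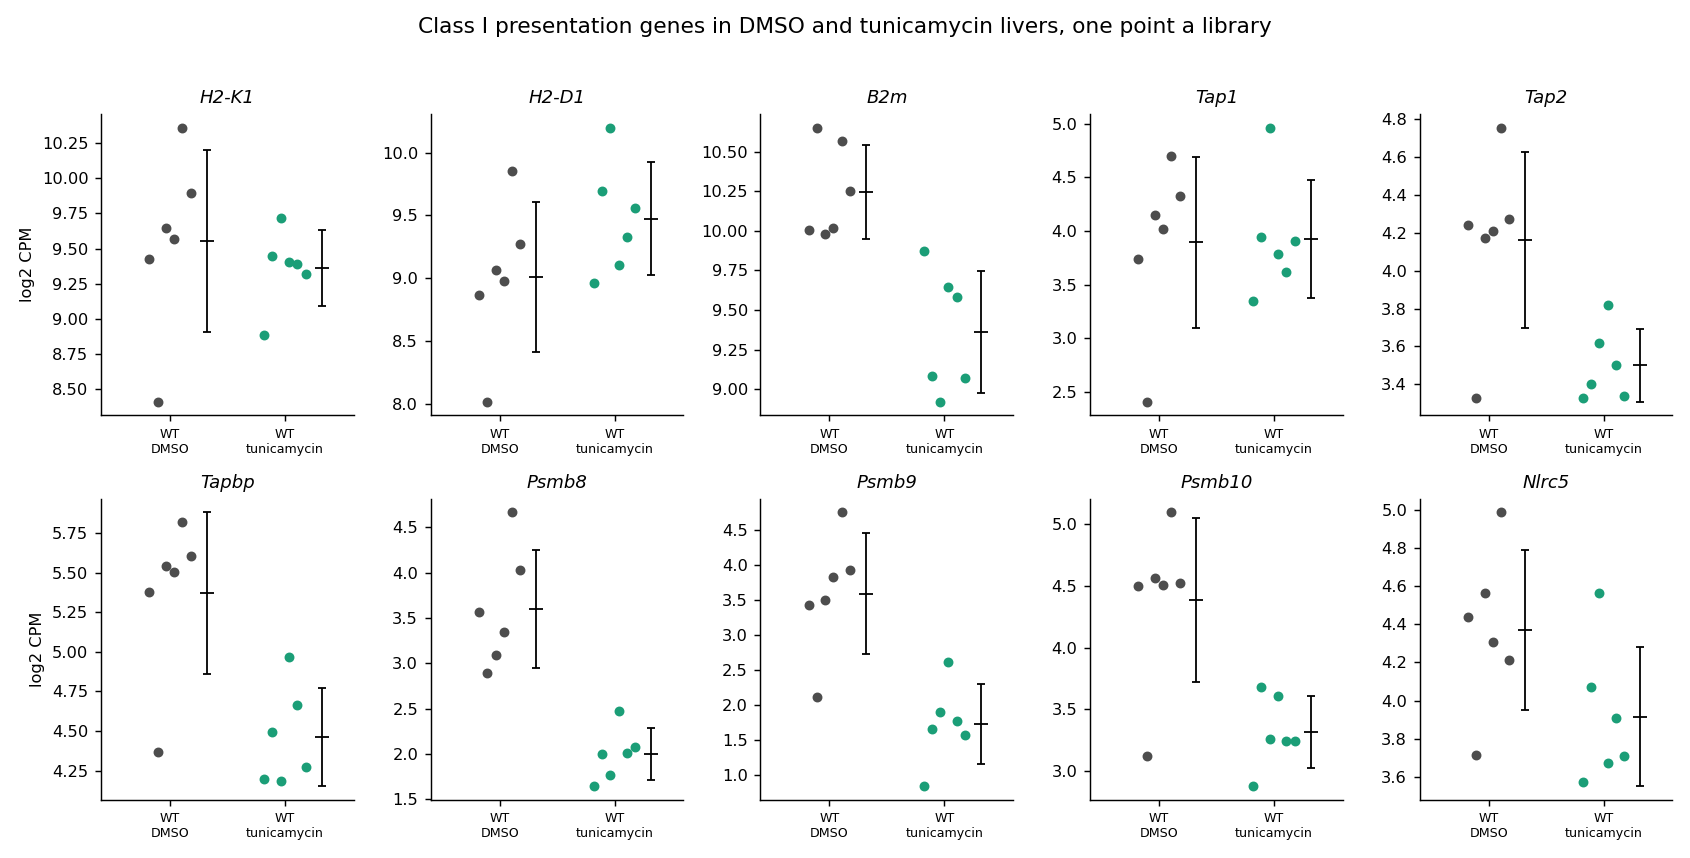
Level of each gene (vertical axis, log2 CPM, own range per panel) in WT livers given DMSO or tunicamycin; points are libraries and black marks the mean ± SD of each group (n = 6). The tunicamycin points of Psmb8 and B2m lie below all DMSO points, and those of H2-K1, H2-D1, Tap1 and Nlrc5 overlap them. In this comparison 13.5% of all genes were called lower, and the share of them that separates in this way was not counted.

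The comparison of tunicamycin with DMSO asks what chemical ER stress does over 24 hours in livers without the transgene. All 3 immunoproteasome subunits fell, Psmb9 by 3.65-fold, Psmb8 by 3.03-fold and Psmb10 by 2.09-fold, together with Tapbp (1.87-fold), B2m (1.84-fold) and Tap2 (1.58-fold). No gene of the 10 rose at the threshold of 0.05, and the 2 heavy chains, Tap1 and Nlrc5 did not pass. The 6 of 10 lower stand beside 13.5% of all genes lower and 45.3% higher, with a median of -0.77 over the 10 genes and 0.38 over all genes. With equal medians 8 of the 10 were lower, beside 29.2% of all genes lower and 24.1% higher.

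Psmb8 was at 2.90, 3.45 and 4.66 log2 CPM (lowest, median, highest) after DMSO and at 1.65, 2.01 and 2.48 after tunicamycin, without overlap (log2 fold change -1.60 ± 0.27, limma adjusted p = 0.000282). Psmb9 was at 2.11, 3.67 and 4.76 after DMSO and 0.84, 1.71 and 2.62 after tunicamycin, and only DMSO 2 lay within the tunicamycin range (-1.87 ± 0.38, adjusted p = 0.000973). Psmb10 was at 3.12, 4.52 and 5.10 against 2.88, 3.26 and 3.69 (-1.07 ± 0.27, adjusted p = 0.00415). DMSO 2 was the lowest DMSO library for 9 of the 10 genes and DMSO 5 the highest for 9. Without DMSO 2 the 3 subunits had log2 fold changes of -1.74, -2.17 and -1.32.

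B2m was at 9.98, 10.13 and 10.65 log2 CPM after DMSO and at 8.92, 9.33 and 9.87 after tunicamycin (-0.88 ± 0.20, limma adjusted p = 0.00213, no overlap). Tapbp was at 4.37, 5.52 and 5.82 against 4.18, 4.39 and 4.97, and again DMSO 2 alone reached into the tunicamycin range (-0.91 ± 0.23, adjusted p = 0.00397). Tap2 was at 3.33, 4.22 and 4.75 against 3.33, 3.45 and 3.82 (-0.66 ± 0.20, adjusted p = 0.0114), and did not pass without the filter on low values (adjusted p = 0.0526). Its partner Tap1 was at 2.41, 4.09 and 4.70 against 3.35, 3.84 and 4.96, with a log2 fold change of 0.03 (95% interval -0.71 to 0.78, adjusted p = 0.936). That value was -0.26 without DMSO 2 and -0.17 without tunicamycin 6, and passed in neither case.

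H2-K1 was at 8.41, 9.61 and 10.36 log2 CPM after DMSO and 8.88, 9.40 and 9.72 after tunicamycin (-0.19, interval -0.76 to 0.38). H2-D1 was at 8.02, 9.02 and 9.86 against 8.96, 9.44 and 10.20 (0.46, interval -0.13 to 1.06). Nlrc5 was at 3.71, 4.37 and 4.99 against 3.57, 3.81 and 4.56 (-0.45 ± 0.21, limma adjusted p = 0.0822), and passed downwards without DMSO 2 (-0.59, adjusted p = 0.0166) or without tunicamycin 6 (-0.58, adjusted p = 0.0256). With equal medians H2-K1 (-0.64, adjusted p = 0.0236) and Nlrc5 (-0.90, adjusted p = 0.000685) were lower and H2-D1 did not pass (0.01). Of the macrophage and Kupffer cell markers 5 of 9 fell, beside 13.5% of all genes lower and 45.3% higher. Their summed level was 213 to 301 CPM after tunicamycin and 233 to 813 after DMSO. Ptprc was at 2.83 ± 0.27 log2 CPM after tunicamycin and 3.50 ± 0.56 after DMSO (SD, n = 6 each), with DMSO 5 the highest of its group (4.55). Endothelial markers summed to 161 to 195 CPM after tunicamycin and 155 to 243 after DMSO. Of the hepatocyte markers 3 of 5 fell and 1 rose, with a sum of 23448 to 61626 CPM against 77470 to 106888. The part of any of these cells in the fall of the class I genes was not tested.

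**Figure D4:**
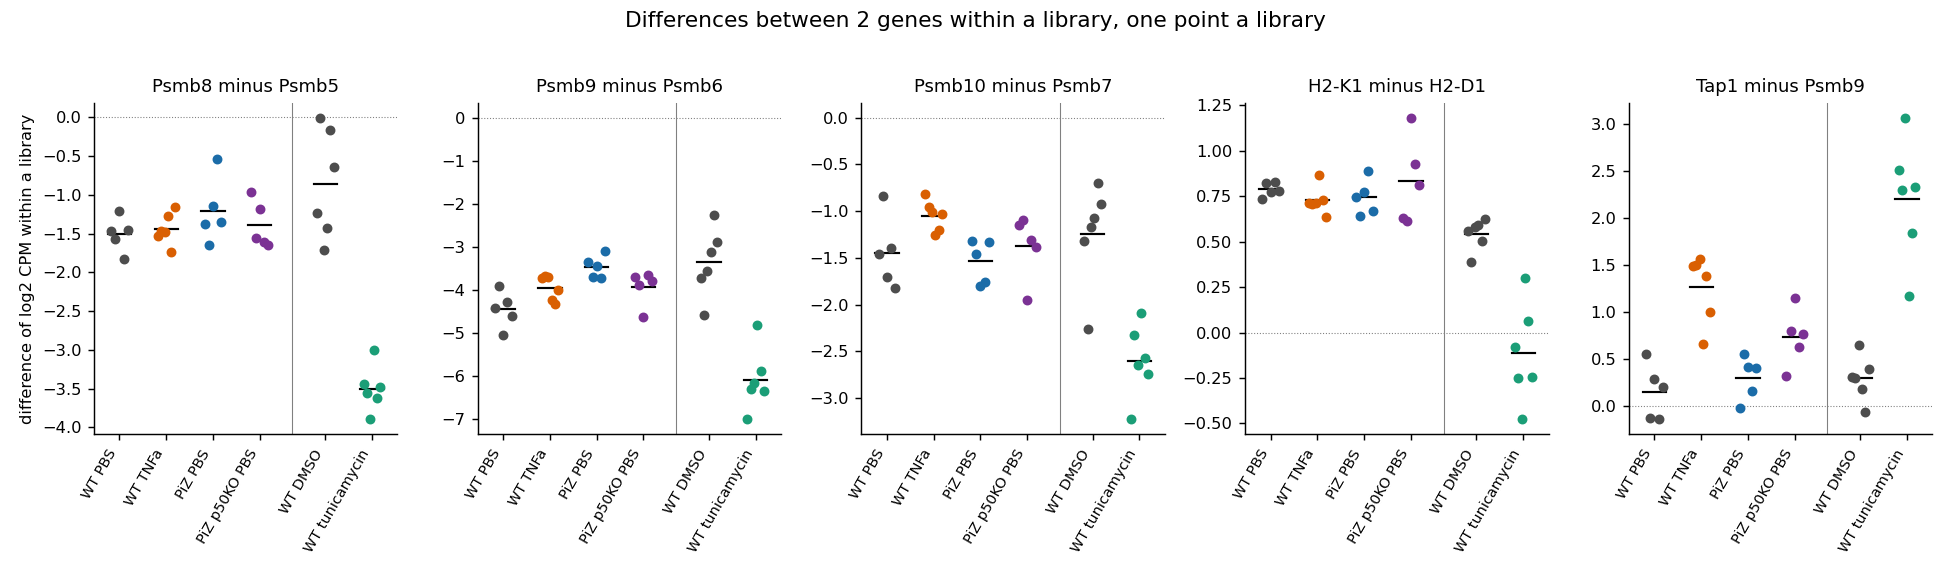
Difference of log2 CPM between 2 genes of the same library (vertical axis), for the 3 immunoproteasome subunits against their standard counterparts, the 2 heavy chains, and the neighbours Tap1 and Psmb9; points are libraries, lines are group means, and the vertical line separates the 2 tables. After tunicamycin every library lies outside the DMSO range for Psmb8 minus Psmb5, Psmb9 minus Psmb6, H2-K1 minus H2-D1 and Tap1 minus Psmb9.

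A difference between 2 genes of the same library does not depend on how libraries are scaled. It was taken for 5 pairs of genes in 4 comparisons, with exact two-sided permutation tests over libraries adjusted over the 20 tests. The pairs were chosen after the levels were seen, so these p-values are not independent evidence, and 6 against 6 libraries allow no unadjusted p below 0.00216. The first 3 pairs set an immunoproteasome subunit against the standard subunit whose place it takes.

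After tunicamycin Psmb8 minus Psmb5 was -3.50 ± 0.29 log2 units (SD, n = 6) against -0.87 ± 0.70 after DMSO, a difference of -2.63 ± 0.31 (SE, exact permutation adjusted p = 0.0108). Psmb9 minus Psmb6 was -6.09 ± 0.72 against -3.36 ± 0.80 (-2.73 ± 0.44, exact permutation adjusted p = 0.0108). Psmb10 minus Psmb7 was -2.60 ± 0.39 against -1.24 ± 0.54 (-1.36 ± 0.27, exact permutation adjusted p = 0.0144). In this comparison the standard subunits rose, Psmb5 by 1.03 ± 0.29, Psmb6 by 0.86 ± 0.13 and Psmb7 by 0.29 ± 0.12 on the log2 scale. With equal medians 2 of these 3 still rose.

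In PiZ 1 of these 3 pairs passed. Psmb9 minus Psmb6 was -3.47 ± 0.27 in PiZ and -4.46 ± 0.41 in WT PBS (0.99 ± 0.22, exact permutation adjusted p = 0.0227, n = 5 each), and 0.75 with WT PBS 2 included (adjusted p = 0.0945). Psmb8 minus Psmb5 (0.29 ± 0.21, exact permutation adjusted p = 0.305) and Psmb10 minus Psmb7 (-0.09 ± 0.20, exact permutation adjusted p = 0.738) did not pass. PiZ p50KO against PiZ passed for none of the 5 pairs, of which 2 had an unadjusted exact p under 0.05: Psmb9 minus Psmb6 and Tap1 minus Psmb9. The latter passed without PiZ p50KO 1 (0.53, exact permutation adjusted p = 0.0397). After TNFa, Psmb9 minus Psmb6 differed from WT PBS by 0.51 ± 0.22 and Psmb10 minus Psmb7 by 0.40 ± 0.18 (exact permutation p = 0.0433 and 0.0476, adjusted p = 0.0866 for both). Both passed without WT PBS 3 (0.64, adjusted p = 0.0476, and 0.55, adjusted p = 0.0238). Psmb8 minus Psmb5 did not pass after TNFa (0.06 ± 0.13, exact permutation adjusted p = 0.62).

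The distance between the heavy chains had close means in the groups of the first table. H2-K1 minus H2-D1 was 0.79 ± 0.04 log2 units in WT PBS (SD, n = 5), 0.73 ± 0.08 after TNFa, 0.74 ± 0.10 in PiZ and 0.83 ± 0.23 in PiZ p50KO. It was -0.37 in WT PBS 2, the reverse order. The difference between TNFa and WT PBS did not pass (-0.06, exact permutation adjusted p = 0.216) but did without TNFa 4 (-0.09, adjusted p = 0.0198). After tunicamycin it was -0.11 ± 0.27 against 0.54 ± 0.08 after DMSO, so that H2-D1 came to lie above H2-K1 in 4 of 6 libraries (difference -0.66 ± 0.12, exact permutation adjusted p = 0.0108). Class I heavy chains share nearly identical stretches, and how reads that fit several of them were counted is not given in the sources used here, so these values are uncertain.

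Tap1 and Psmb9, whose RefSeq starts face away from each other, did not move in step everywhere. Tap1 minus Psmb9 was 0.16 ± 0.29 log2 units in WT PBS and 0.30 ± 0.23 in PiZ (SD, n = 5 each), where both genes rose (difference 0.15 ± 0.17, exact permutation adjusted p = 0.526). It was 1.26 ± 0.36 after TNFa, 1.11 ± 0.20 above WT PBS (exact permutation adjusted p = 0.0144), and 0.79 above WT PBS when WT PBS 2, at 2.09, was included (adjusted p = 0.11). After tunicamycin it was 2.20 ± 0.64 against 0.30 ± 0.23 after DMSO (1.90 ± 0.28, exact permutation adjusted p = 0.0108). The annotated exons of these 2 genes overlap by 212 bases on opposite strands, and whether the counting used strand is not given in the sources used here. Antisense or neighbouring annotations also overlap exons of Psmb8 (498 bases), Tap2 (533 and 165 bases), Tapbp (904 and 149 bases) and Nlrc5 (78 bases).

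Of the other genes of the pathway, those that trim peptides or load them onto class I rose in 6 of 9 in PiZ, beside 45.6% of all genes. They were led by Pdia3 (0.91 ± 0.15 on the log2 scale, adjusted p = 6.45e-05) and Calr (0.88 ± 0.17, adjusted p = 0.000174), ER proteins of the loading complex that also fold other glycoproteins, and by the tapasin relative Tapbpl (0.81 ± 0.18, adjusted p = 0.000739). With equal medians 1 of these 9 was higher and 2 were lower (17.4% and 22.5% of all genes). After tunicamycin 7 of 9 rose (45.3% of all genes; 24.1% with equal medians), led by Calr (2.53 ± 0.18), Pdia3 (2.31 ± 0.16) and Thop1 (1.87 ± 0.23, a peptidase of the cytosol), and 1 fell, with the same counts under equal medians. Erap1, the ER aminopeptidase that trims class I peptides, was at 5.93 ± 0.11 log2 CPM after tunicamycin and 6.44 ± 0.08 after DMSO. None of the 9 passed after TNFa, where Tapbpl was the nearest (0.34, limma adjusted p = 0.251).

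In PiZ, where 45.6% of all genes were higher, all 3 standard catalytic subunits, 10 of 11 other core subunits and all 5 activators and assembly factors rose, led by Psmb5 (0.66 ± 0.24), Psma5 (0.80 ± 0.15) and Psme4 (0.59 ± 0.08), and none of these genes passed in either direction with equal medians. After tunicamycin 7 of the 11 other core subunits rose (none with equal medians), beside 45.3% of all genes, while the activators split. Psme3 rose (1.24 ± 0.17, adjusted p = 7.26e-05), and Psme1, a subunit of the interferon-inducible activator PA28, fell (-0.89 ± 0.15, adjusted p = 0.000325), as did the immunoproteasome subunits. Psme1 was at 5.23 ± 0.30 log2 CPM after tunicamycin and 6.12 ± 0.20 after DMSO (SD, n = 6 each). Its PA28 partner Psme2 was not lower, at 5.44 ± 0.17 after tunicamycin and 5.23 ± 0.45 after DMSO.

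**Figure D5:**
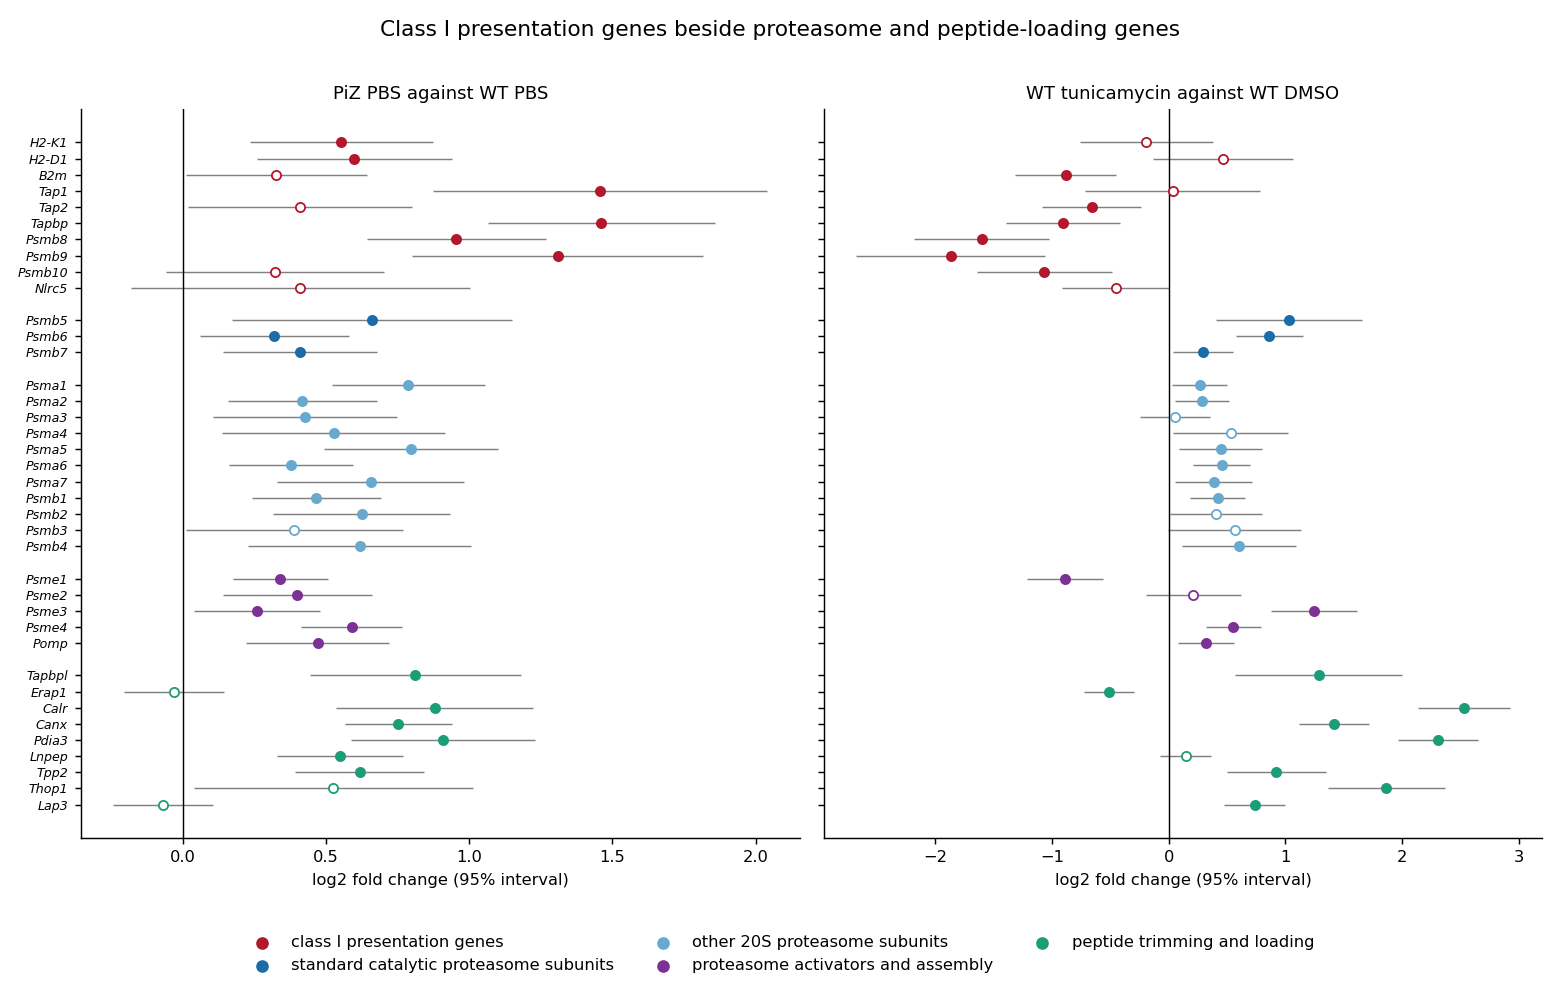
Log2 fold change (horizontal axis, with 95% interval) of the 10 class I presentation genes beside the other proteasome and peptide-loading genes, in PiZ (left) and after tunicamycin (right); filled points passed the test and open points did not. After tunicamycin Psmb8, Psmb9, Psmb10 and Psme1 lie left of 0, and Psmb5, Psmb6 and Psmb7 lie right of it.

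Of the 14 other class I heavy chains tested in PiZ, 6 rose and 4 fell, beside 45.6% of all genes higher and 6.19% lower. With equal medians 5 were higher and 7 lower (17.4% and 22.5% of all genes). H2-M2 (log2 fold change 5.24 ± 0.79) and H2-M3 (1.84 ± 0.24) rose, and H2-Bl fell (-2.33 ± 0.54, limma adjusted p = 0.00128). H2-M2 was at -3.57 ± 1.82 log2 CPM in WT PBS, near the lowest values of the table, so the size of its change depends on the prior count. After TNFa 3 of 14 rose (7.63% of all genes), H2-Q6 (2.47 ± 0.31), H2-Q4 (0.68 ± 0.20) and H2-Q7 (0.44 ± 0.14). H2-Q10, a secreted class I molecule of the liver, was at 11.03 ± 0.31 log2 CPM after DMSO and 9.84 ± 0.38 after tunicamycin, a fall of 1.19 ± 0.20 (adjusted p = 0.000314), while H2-T22 rose (1.42 ± 0.22, adjusted p = 0.000134). The same doubt over shared sequence applies to all of these.

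In PiZ, where 45.6% of all genes were higher (17.4% with equal medians, and 22.5% lower), the transcription factors of class I genes rose in 10 of 14, led by the class II activator Ciita (2.25 ± 0.35), Irf8 (1.67 ± 0.30) and Irf1 (1.34 ± 0.42, limma adjusted p = 0.0112), and 5 rose and 3 fell with equal medians. The interferon receptor and kinase genes rose in 6 of 7 tested (3 with equal medians), led by Ifngr1 (1.83 ± 0.20) and Ifngr2 (1.21 ± 0.25), subunits of the interferon gamma receptor. The interferon genes Ifng and Ifnb1 were under the filter. Ifnb1 had no reads in PiZ or WT PBS. Ifng had none in WT PBS and lay between -6.52, the lowest value of the table, and -3.89 log2 CPM in PiZ. In PiZ p50KO against PiZ (21.6% of all genes lower), Ifngr1 (-1.26 ± 0.20) and Ifngr2 (-1.11 ± 0.25) fell, 3 of 5 NF-κB subunits fell (Relb, Nfkb2 and Nfkb1), and Irf8 fell (-0.92 ± 0.30). After tunicamycin the factors split into 4 higher and 4 lower of 13 (45.3% and 13.5% of all genes; 1 and 5 of 13 with equal medians), and Irf1 fell (-0.90 ± 0.25, adjusted p = 0.00653).

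The genes whose pattern lay nearest to the mean of the 10 over 21 libraries of the first table were Ensa, E2f3, Ogfr, 2610001J05Rik and G3bp1, with a mean absolute difference of 0.11 to 0.13 log2 units. Over all 13275 other genes the median difference was 0.36. Of the 10 genes themselves, which make up that mean, H2-D1 was the nearest to it (0.12) and Nlrc5 the farthest (0.53). Nlrc5 and Tap1 (0.42) lay farther from it than the median of the other genes, and B2m and Tapbp (both 0.34) lay near that median. In the second table, over 12 libraries, the nearest genes were Ctdspl, Tsc22d4, Itgal, Adamts2 and Ccdc157, at 0.10 to 0.16 (median of all 0.65), with Tap2 at 0.09 and Psmb9 at 0.60 among the 10.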

How the data were processed

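RNA-seq libraries of mouse liver were analysed from 2 deposited tables of log2 CPM (log2 of reads scaled to the library's total, with a small prior count), made by the authors. Per the submitters' processing notes the tools were bcl2fastq, DRAGEN, STAR, Subread, featureCounts and edgeR, with build GRCm38; the strand setting is not given in the sources used here. Each table has 55487 gene IDs, of which 99.53% were in GENCODE M21. The deposited values gave back whole reads (100% within 0.1 read), which set the depths.

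Genes above 1 CPM in at least 5 (first table) or 6 (second table) libraries were tested: 13285 and 13388. Each table was fitted with limma 3.58.1 (R 4.3.3, empirical Bayes with trend, two-sided) and p-values were adjusted over all genes tested (Benjamini-Hochberg, threshold 0.05), without WT PBS 2. The tests were checked on simulated data. The 10 genes, the lists and the tests were chosen with earlier results of these data known, and the gene pairs and the letters GAANNGAAA after values or sequences were seen. All 10 genes are named, and of each list up to 3 called genes with the greatest change, or the greatest if none was called. Erap1, H2-Q10, Psme1, Psme2, Nfkb1, Irf8 in the p50 comparison, Ifng, Ifnb1 and Ptprc stand for a result that turns on them. Replicate numbers did not pair the libraries (correlations of same-numbered libraries from -0.23 to 0.56). In 3 tunicamycin libraries the table's column gives the group only. Alternatives were WT PBS 2 included, no filter, a pseudocount of 1 CPM, equal library medians, only the groups compared, a replicate block and each library left out.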

Additional observations from a re-analysis of the deposited data

Results flagged for a closer look

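In 60 sets of values (each gene in each group) 6 held a library whose gap to the rest was large for the range of its group, where chance gives about 5% of sets. PiZ 4 was low for H2-K1 (9.83 log2 CPM, others 10.30 to 10.42), H2-D1 (8.94, others 9.53 to 9.72) and Tap2 (3.80, others 4.38 to 4.58). Tap1 was high in tunicamycin 6 (4.96, others 3.35 to 3.95). DMSO 2 was low for Tapbp (4.37, others 5.38 to 5.82) and Psmb10 (3.12, others 4.50 to 5.10).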

How the results depend on the processing

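Of the gene by comparison results, 27 were called, and 430 of their 480 values under alternatives kept direction and call. Including WT PBS 2 gave 2331 genes called in PiZ against WT (6886 without it; median of the 10 genes 0.99), 547 after TNFa (1551; 1 of the 10 higher, median 0.51), 470 in PiZ p50KO against PiZ (3313; 0 higher, 1 lower of the 10), 12 in PiZ p50KO against WT (1550; 0 higher) and 3374 in TNFa against PiZ (7416; 0 higher, 3 lower). Equal library medians gave medians over the 10 genes of 0.0862 (PiZ against WT), -0.10 (PiZ p50KO against PiZ, 2 lower), 0.0784 (TNFa against PiZ, 3 higher, 1 lower) and -1.22 (tunicamycin), and 1000 genes called in PiZ p50KO against WT; in TNFa against PiZ, H2-K1 (0.0697), H2-D1 (0.0872), B2m (0.0052), Tap2 (0.38) and Psmb10 (0.39) changed sign. Without the filter, 996 genes were called after TNFa and 420 in PiZ p50KO against WT (1 of the 10 higher), with 0 higher and 2 lower in PiZ p50KO against PiZ and 3 lower in TNFa against PiZ. With only the groups compared, PiZ p50KO gave 2201 genes against PiZ (0 of the 10 higher) and 321 against WT. Without PiZ p50KO 1 and 2 these were 1480 (0 higher) and 2429. The cause of these shifts was not tested. The replicate block, on numbers that do not pair the libraries, gave 795 genes and 1 of the 10 higher in PiZ p50KO against WT, and the other counts of genes called moved by less than 1.5 times. With it B2m passed in PiZ against WT (adjusted p = 0.0435) and H2-K1 lost its call in TNFa against PiZ (adjusted p = 0.0883). Leaving out 1 library gave 6089 to 7426 genes called in PiZ (6 to 8 of the 10 higher), 1179 to 2095 after TNFa, 2201 to 3874 in PiZ p50KO against PiZ (0 to 1 higher, 4 to 5 lower), 704 to 2111 in PiZ p50KO against WT (1 to 3 higher), 6558 to 7725 in TNFa against PiZ (4 to 5 lower) and 6929 to 8789 after tunicamycin (6 to 7 lower). Depth limits Nlrc5 most, the lowest of the 10 genes in the first table.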

Other observations

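Of the class I-like molecules, which fold like class I heavy chains but present other ligands or none, Mr1, which shows vitamin B metabolites to T cells, rose by 1.05 ± 0.23 on the log2 scale in PiZ (limma adjusted p = 0.00078) and fell by 0.78 ± 0.23 in PiZ p50KO against PiZ (adjusted p = 0.017). After tunicamycin Mr1 fell by 1.51 ± 0.22 (adjusted p = 0.00011), Fcgrt, the neonatal Fc receptor, fell by 0.74 ± 0.28 (adjusted p = 0.0358), and Hfe, a regulator of iron uptake, rose by 1.51 ± 0.14 (adjusted p = 3.43e-06). In PiZ 1 of 5 rose on the deposited scale, beside 45.6% of all genes higher and 6.19% lower. With equal medians none was higher and 4 were lower, beside 17.4% of all genes higher and 22.5% lower.

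WT PBS 2, the library kept apart, was above the range of the other WT PBS libraries for the summed markers of several cell types: 204 CPM for cholangiocytes (7.02 to 10.6), 131 for dendritic cells (2.01 to 5.09), 113 for T and NK cells (1.42 to 2.89), 73.6 for neutrophils (1.48 to 18.7), 44.8 for B cells (0.412 to 1.98) and 289 for stellate cells (108 to 141). Ptprc was at 45.3 CPM (1.71 to 4.13). Macrophage (235 CPM) and endothelial markers (153 CPM) were within the range of their group, and hepatocyte markers summed to 7339 CPM against 77565 to 105284.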
